A study of Rattus norvegicus with 2 samples.

Results

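The S phase cells were 871 cells of 2 droplet single-cell libraries of rat neural stem cells, 730 from a culture given ZD7288 and 141 from a culture given vehicle. They were the cells richest in RNA of 8 genes of DNA replication and not rich in RNA of 7 genes of mitosis. The 871 cells were drawn from 3548 kept cells (2838 of ZD7288, 710 of vehicle), and these from 4691 deposited barcodes (3849 of ZD7288, 842 of vehicle). They were chosen by measured RNA, so the levels of the genes used in the choice are given as a description. DNA content was not analysed here.

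Both cultures were primary neural stem cells from the cortex of Sprague-Dawley rat embryos (E14.5), bought from a supplier and grown in complete medium. The medium held FGF2, which keeps neural stem cells dividing. The ZD7288 culture received 30 µM ZD7288, which blocks HCN channels (cation channels opened by hyperpolarisation of the membrane), in DMSO at a final 0.2%. The vehicle culture received 0.2% DMSO alone. Exposure lasted 48 h in both, with the medium replaced at 24 h. The label of the treated sample spells the compound ZD2788. The comparison asks how these cells' RNA differs after the compound. Each group was 1 library, so no difference has a replicate check, no test between the groups was made, and library and treatment cannot be told apart.

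In S phase a cell copies its genome. The MCM proteins, loaded onto origins in G1 with the help of Cdc6 and Cdt1, form the core of the helicase that Cdc45 and the GINS complex switch on, and DNA polymerases then copy both strands behind it, held by the PCNA ring. Most of these genes are transcribed late in G1 and in early S phase under E2F transcription factors, whereas genes of the spindle and of chromosome segregation reach their peak in G2 and mitosis. In the developing cortex, neural stem cells cycle quickly, and the length of G1 and of S phase is linked to the choice between self-renewal and differentiation.

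Cells were kept with at least 5000 unique molecular identifiers (UMIs, each marking 1 captured RNA molecule) and at most 10% of UMIs from mitochondrially encoded genes. The S share of a cell was the percentage of its UMIs in Pcna, Mcm3, Mcm5, Mcm6, Tyms, Rrm1, Cdc6 and Dscc1. The M share was that in Plk1, Aurka, Cdc20, Ccnb1, Cenpf, Tpx2 and Ube2c, since Ccnb2, the eighth gene of the rule, was not matched in the gene table used. S phase cells were those in the top 25% of S share (above 0.110%) and not in the top 25% of M share (0.134%), with both limits taken over the 2 libraries pooled. The M class held the 680 ZD7288 and 191 vehicle cells in the top 25% of M share alone, and 1422 ZD7288 and 368 vehicle cells were in neither top 25%.

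S phase cells made up 25.7% of kept ZD7288 cells (exact binomial 95% interval 24.1 to 27.4), against 19.9% of kept vehicle cells (17.0 to 23.0). The order of these shares turned when cells with at most 5% mitochondrial UMIs were taken, at 24.1% of ZD7288 cells (396 S phase cells) against 31.4% of vehicle cells (50 S phase cells). With the limits taken within each library the shares were 24.7% in ZD7288 and 23.8% in vehicle. That setting itself holds each share at or just under 25%, so it does not bear on their order. The order of the 2 shares thus depended on the limit on mitochondrial UMIs. All intervals here cover counting error only.

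S share ran from 0 to 0.329% over kept ZD7288 cells, with quartiles of 0.0330%, 0.0590% and 0.112%. Over kept vehicle cells it ran from 0 to 0.308%, with quartiles of 0.0375%, 0.0653% and 0.103%. The ZD7288 cells were therefore spread more widely at both ends. Among cells in neither top 25% the median S share was 0.0483% in ZD7288 and 0.0638% in vehicle. Cells in both top 25% were few, 6 of ZD7288 (0.211%, 0.0776 to 0.460) and 10 of vehicle (1.41%, 0.677 to 2.57).

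**Figure D1:**
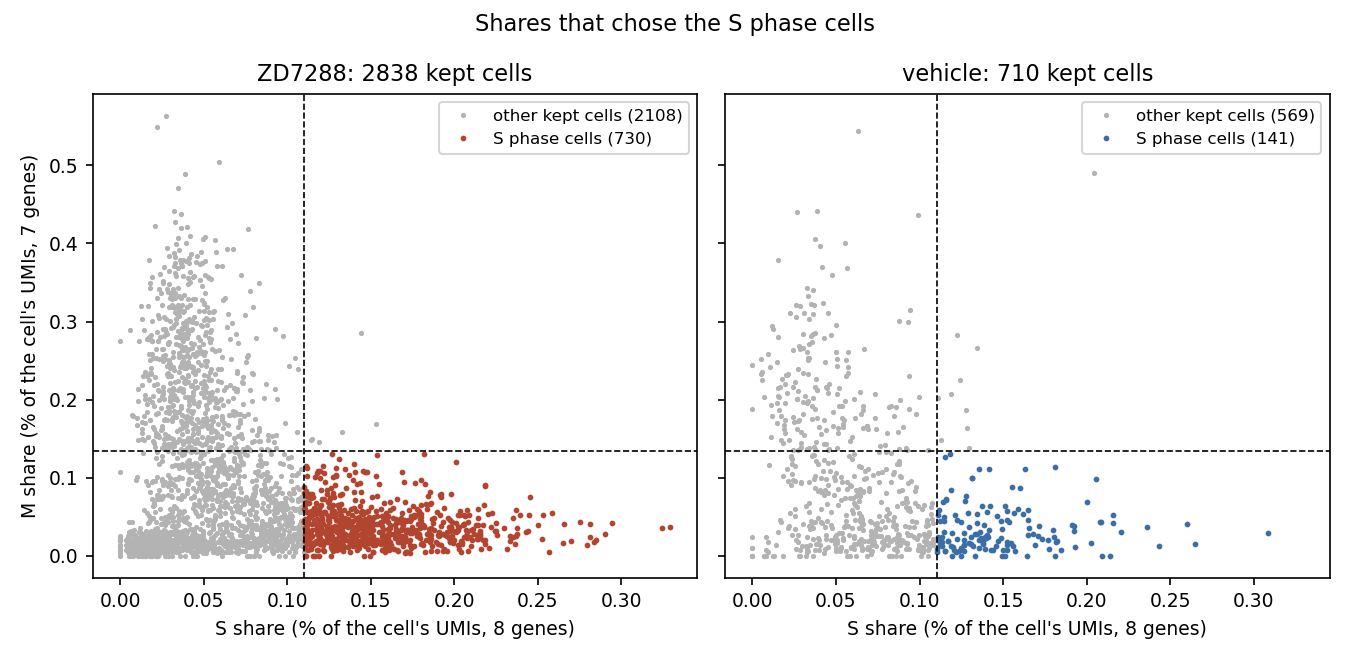
Each point is a kept cell, with its S share on the x axis and its M share on the y axis, both as percent of the cell's UMIs. ZD7288 is on the left and vehicle on the right, S phase cells are coloured, dashed lines mark the limits of 0.110% and 0.134%, and few cells lie beyond both.

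The choice rested on few molecules per cell. S phase cells held 6 to 112 UMIs of the 8 genes in ZD7288 (median 34) and 6 to 70 in vehicle (median 25). Just inside the limit, within 5% of it, lay 66 ZD7288 cells with S shares of 0.110% to 0.116% and 18 vehicle cells in the same range. Just outside lay 56 ZD7288 cells and 16 vehicle cells, at 0.105% to 0.110% in ZD7288 and 0.105% to 0.109% in vehicle. The limit therefore cuts a continuous range of cells and does not mark a gap.

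The summed S phase cells held 17078090 UMIs in ZD7288 and 2657271 in vehicle. A count of 0 allows up to 3 counts, which is 0.176 counts per 1000000 UMIs (CPM) in ZD7288 and 1.13 CPM in vehicle. A median S phase cell had 22977 UMIs, 4077 genes and 4.90% mitochondrial UMIs in ZD7288, against 16293 UMIs, 3355 genes and 5.38% in vehicle. These differences in depth and mitochondrial share stand beside every comparison of the libraries below, and their part in it was not tested. The libraries shared 3 cell barcodes, none of them an S phase cell. Doublet scores marked 9 ZD7288 and 1 vehicle S phase cells, which were kept.

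In the sums over cells, markers of blood and vessel cells were at or near 0. Some neuron, intermediate progenitor, astrocyte and oligodendrocyte lineage markers had RNA. Of 10 microglia and blood cell markers all but Csf1r (1 UMI, in ZD7288) were at 0 in both libraries, among them Aif1, Ptprc and Hbb. Of 13 endothelial, pericyte and fibroblast markers none reached 20 CPM, and their sum was 17.1 CPM in ZD7288 and 1.13 CPM in vehicle, led by Tagln at 7.09 against 0.753 CPM. Of 12 neuron markers 2 reached 20 CPM, Gap43 at 114 CPM in ZD7288 and 81.7 CPM in vehicle and Map2 at 60.2 and 83.2 CPM, and the list summed to 190.3 CPM in ZD7288 and 170.5 CPM in vehicle. Intermediate progenitor markers summed to 238 CPM in ZD7288 and 224 CPM in vehicle, mostly Btg2 at 193 and 195 CPM, with Eomes at 0. Astrocyte markers summed to 75.9 CPM in ZD7288 and 63.2 CPM in vehicle, mostly Aldoc and Gja1, with Gfap and Aqp4 at 0. Oligodendrocyte lineage markers summed to 1296 CPM in ZD7288 and 2276 CPM in vehicle, mostly Olig1 at 955 and 1651 CPM. Of the 12 matched, 9 stayed under 20 CPM in both libraries. Neural stem cell markers summed to 7378 CPM in ZD7288 and 8258 CPM in vehicle. Of the 13 matched, 6 reached 20 CPM in both libraries and 4 stayed under it in both. The neural stem cell genes Nes and Sox2 stood at 135 and 244 CPM in ZD7288, against 111 and 214 CPM in vehicle.

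Of the 8 genes that chose the cells, 1 passed a log2 ratio of 0.32 between S phase cells of the libraries and 7 lay within it. Their values chose the members and are given as a description. Pcna, the sliding clamp (ENSRNOG00000021264), had 534 CPM in ZD7288 and 522 CPM in vehicle. Mcm6, a helicase subunit (ENSRNOG00000003703), had 296 CPM in ZD7288 and 284 CPM in vehicle. Dscc1, of the clamp loader that acts in cohesion, had 99.5 CPM in ZD7288 and 96.7 CPM in vehicle. Tyms, thymidylate synthase (ENSRNOG00000037225), had 65.8 CPM in ZD7288 and 45.2 CPM in vehicle, a ratio of 1.46 (1.21 to 1.77, exact 95% interval). Rrm1, the large subunit of ribonucleotide reductase, had 224 against 188 CPM, a ratio of 1.19 (1.08 to 1.31). The other 6 ratios of ZD7288 over vehicle ran between 0.892 for Cdc6 and 1.09 for Mcm3.

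The promoters of 3 helicase genes of the S share are shown because they carry E2F motifs, the letters through which this class of genes is known to be switched on before S phase. The sequences are those of RefSeq on assembly GRCr8, from 250 bases before to 50 bases after the annotated start, 5′ to 3′ on the gene's strand. Capitals mark every match, on either strand, to TTTGGCGC, TTTCCCGC, TTTCGCGC or TTTGCCGC.
Mcm3, chr9:30733697-30733996, minus strand: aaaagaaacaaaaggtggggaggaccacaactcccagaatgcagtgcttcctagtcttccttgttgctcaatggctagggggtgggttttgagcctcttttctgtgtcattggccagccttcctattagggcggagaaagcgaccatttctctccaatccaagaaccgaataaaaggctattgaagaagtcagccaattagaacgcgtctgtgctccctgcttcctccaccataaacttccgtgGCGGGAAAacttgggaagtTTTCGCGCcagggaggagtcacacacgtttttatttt
Mcm5, chr19:13488563-13488862, plus strand: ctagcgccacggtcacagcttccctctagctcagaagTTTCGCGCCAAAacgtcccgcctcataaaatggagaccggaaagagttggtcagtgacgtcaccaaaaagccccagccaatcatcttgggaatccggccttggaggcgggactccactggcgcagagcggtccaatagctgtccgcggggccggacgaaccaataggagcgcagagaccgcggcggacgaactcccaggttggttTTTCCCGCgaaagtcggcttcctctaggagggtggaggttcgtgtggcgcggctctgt
Mcm6, chr13:42404303-42404602, minus strand: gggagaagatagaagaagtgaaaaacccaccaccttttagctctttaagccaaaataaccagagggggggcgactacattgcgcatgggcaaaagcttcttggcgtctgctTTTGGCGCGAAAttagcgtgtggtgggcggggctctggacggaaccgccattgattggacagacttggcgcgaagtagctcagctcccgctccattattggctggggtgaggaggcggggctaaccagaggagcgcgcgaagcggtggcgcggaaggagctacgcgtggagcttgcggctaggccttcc
In Mcm5 and in Mcm6, TTTCGCGC and TTTGGCGC on opposite strands overlapped in 4 bases, so 1 stretch of capitals holds both. In Mcm3 a match to TTTCCCGC lay across the start at position -6, and a TTTCGCGC at 14. Of the 8 S share genes 6 were in the promoter table and 4 of these held a motif (66.7%), against 618 of all 27457 promoters (2.25%). The 5 M share genes in the table held none. A match describes letters in this window and is not a measured binding site.

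Genes that the choice did not use followed the same division. In S phase cells, RNA of origin licensing and helicase genes and of polymerase, clamp and fork genes was higher than in the other kept cells of the same library, and RNA of G2 and mitosis genes was lower, in ZD7288 and in vehicle alike. Genes were called measured at 20 CPM or more in the higher of the 2 sums, and members of a list were called higher or lower at a log2 ratio of 0.32 in either direction. Of all measured genes this called 7.17% higher and 3.9% lower in ZD7288, and 16.5% higher and 8.96% lower in vehicle, where sums were smaller. These ratios describe the cells that the rule drew and are no test.

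Of 13 measured origin and helicase genes outside the rule, of 19 matched, 12 were higher in ZD7288 S phase cells, with a median log2 ratio of 1.11 (all measured genes 0.01). In vehicle 14 of 15 were higher, with a median of 0.88 (all genes 0.06). Dbf4, the regulatory subunit of the Cdc7 kinase, was the exception in both, at ratios of 0.768 in ZD7288 and 0.728 in vehicle. Cdc45, the helicase activator, had 63.6 CPM in S phase cells and 17.9 CPM in other cells of ZD7288, a ratio of 3.55 (3.25 to 3.87). In vehicle Cdc45 had 61.0 CPM in S phase cells and 21.1 CPM in other cells, a ratio of 2.89 (2.36 to 3.52). Mcm2, of the same ring as the 3 MCM genes of the rule, had ratios of 3.10 in ZD7288 and 2.56 in vehicle.

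All 26 measured polymerase, clamp and fork genes had ratios above 1 in each library, and 24 of them passed the list limit in each. Their median log2 ratio was 0.99 in ZD7288 and 0.71 in vehicle. Pola2, of the polymerase that starts each new strand, had 34.5 CPM in S phase cells and 12.7 CPM in other cells of ZD7288, and 33.1 against 13.3 CPM in vehicle. Rpa2, of the complex that coats single-stranded DNA, was 2.32-fold higher (2.21 to 2.44) in ZD7288 and 2.33-fold higher (2.08 to 2.61) in vehicle. Of the checkpoint and repair list 13 of 16 measured genes were higher in ZD7288 and 11 of 17 in vehicle. Ung, which removes uracil from DNA, had ratios of 3.64 in ZD7288 and 2.38 in vehicle.

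Of the 12 genes outside the rule that were highest in both libraries, cyclin E2 had the largest ratio in ZD7288. Ccne2 (ENSRNOG00000008055), which drives cells from G1 into S phase, had 109 CPM in S phase cells and 22.9 CPM in other cells of ZD7288, a ratio of 4.78 (4.45 to 5.13). In vehicle it had 116 CPM in S phase cells and 41.8 CPM in other cells, a ratio of 2.78 (2.41 to 3.20). The S phase levels lay close together, and the levels of the other cells apart. Of chromatin genes, Chaf1b, of the histone chaperone that follows the fork, had ratios of 2.89 in ZD7288 and 2.57 in vehicle. Donson, a fork protein gene, Pkmyt1, an inhibitory kinase gene of CDK1, and the helicase gene Mcm4 were also among the 12 genes, with ratios between 2.73 and 3.14 in ZD7288 and between 2.27 and 2.49 in vehicle.

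Genes of G2 and mitosis outside the rule lay on the other side. In ZD7288 27 of 35 measured members were lower in S phase cells and 0 higher, with a median log2 ratio of -0.83. In vehicle 30 of 36 were lower and 0 higher, with a median of -0.86. Cenpa, the centromeric histone, had 40.6 CPM in S phase cells and 128 CPM in other cells of ZD7288, and 45.2 against 133 CPM in vehicle. Prc1, which bundles the midzone microtubules, had 53.6 CPM in S phase cells and 123 CPM in other cells of ZD7288, and 48.5 against 113 CPM in vehicle. Reep4, outside every list, had the lowest ratios common to both, 0.295 (0.241 to 0.359) in ZD7288 and 0.226 (0.122 to 0.386) in vehicle. The limit on the M share takes out cells rich in such genes, so the rule bears on this side too.

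**Figure D2:**
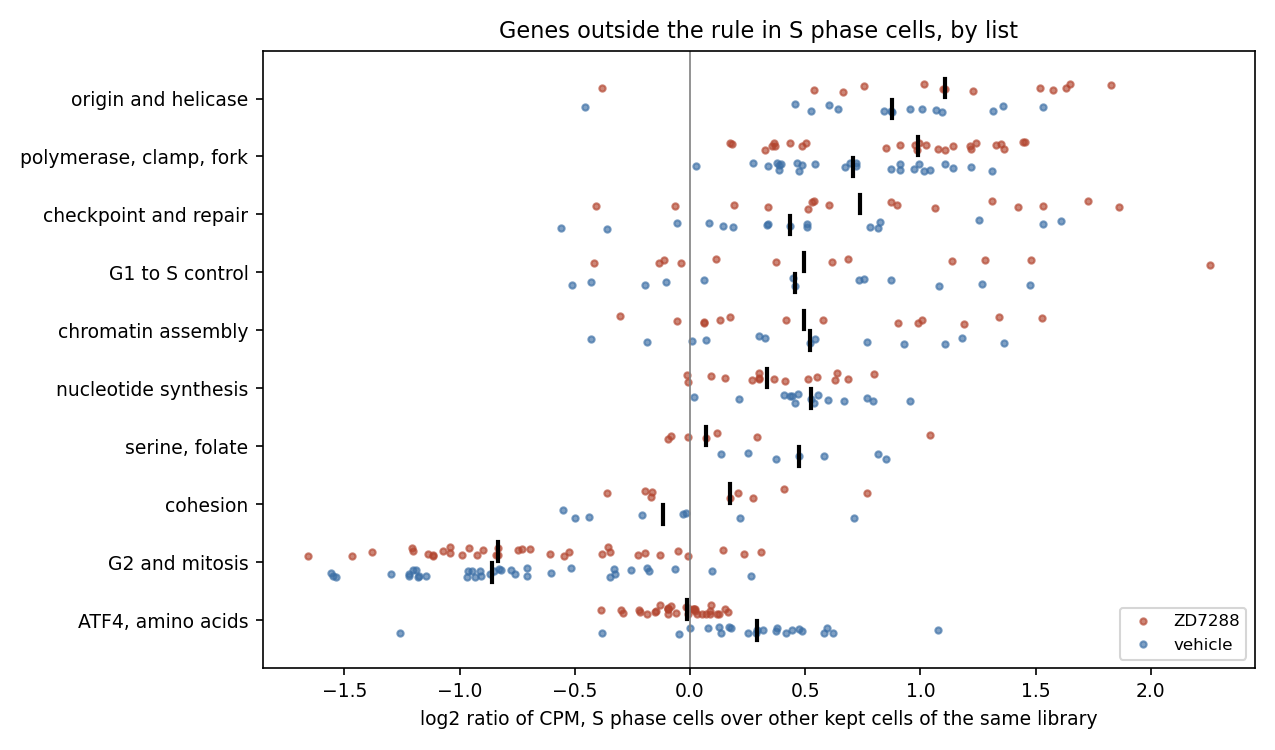
Points are measured genes outside the rule, by list, with the log2 ratio of CPM in S phase cells over the other kept cells of the same library on the x axis. ZD7288 is drawn above vehicle, black ticks are list medians, and the origin and helicase medians are 1.11 in ZD7288 and 0.88 in vehicle.

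The same motifs were more frequent in promoters of these lists than in the table as a whole. Of the origin and helicase genes 7 of 15 promoters held an E2F motif (46.7%), and of the polymerase, clamp and fork genes 13 of 29 (44.8%). Of the G2 and mitosis genes 1 of 39 did (2.56%), near the 2.25% of all promoters.

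Within S phase cells, the largest differences of ZD7288 from vehicle lay outside the replication machinery. Genes of amino acid supply and of the ATF4 response were higher. The 3 measured oligodendrocyte lineage genes and several endoplasmic reticulum chaperone genes were lower. Lists of replication genes had medians close to that of all genes, in cells chosen by replication genes at 1 limit for both libraries. In ZD7288 387 of the 4807 measured genes (8.05%) passed 1.5-fold upward and 182 (3.79%) downward, so that 68.0% of these calls were higher. With the libraries scaled to the median gene ratio the counts were 305 higher and 233 lower, of which 56.7% were higher. At the log2 limit of 0.32 used for lists, 21.8% of measured genes were higher and 11.4% lower, and the median of all genes was 0.07.

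**Figure D3:**
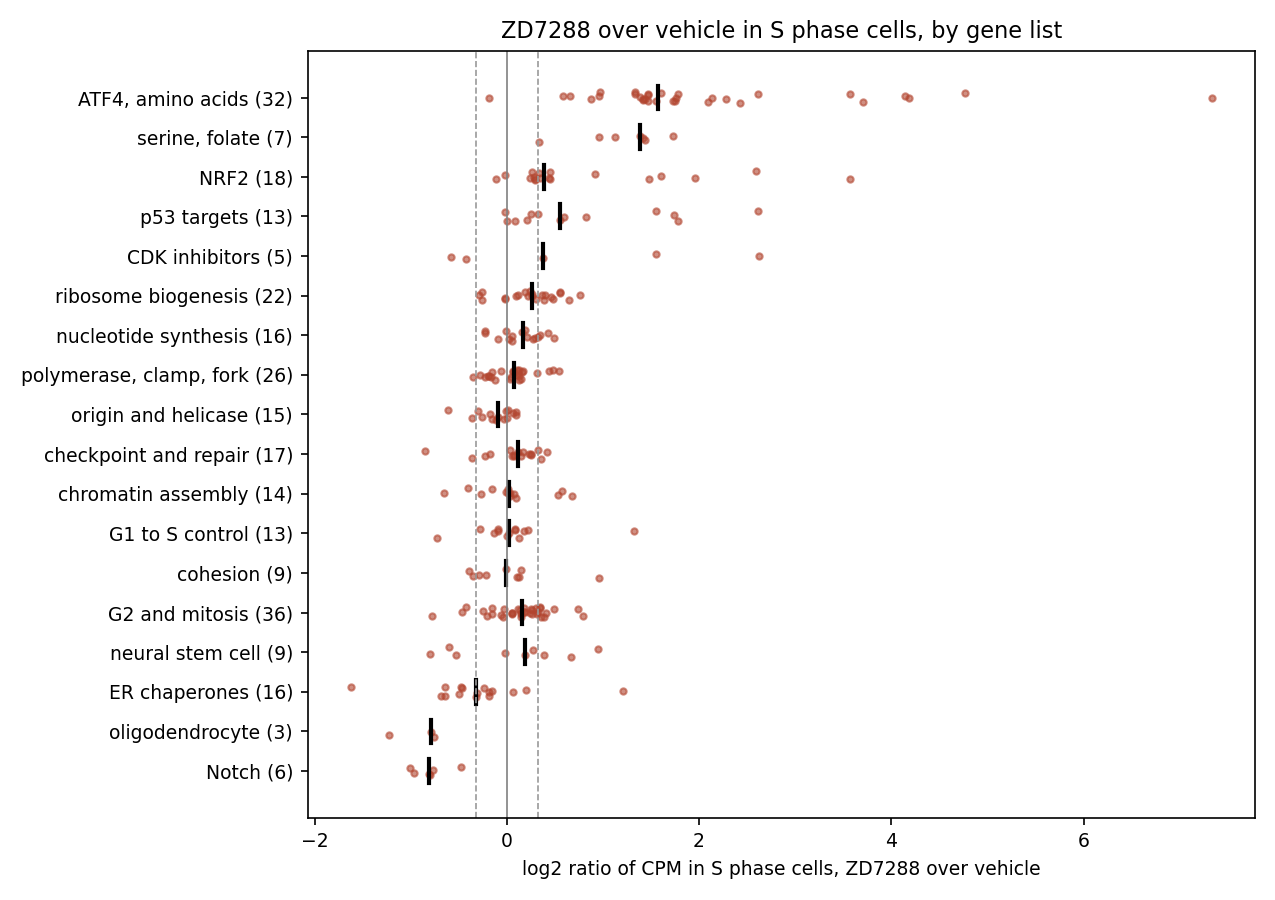
Points are measured list members in S phase cells, with the log2 ratio of CPM in ZD7288 over vehicle on the x axis. Black ticks are list medians (1.58 for ATF4, -0.09 for origin and helicase), dashed lines the limit of 0.32 in either direction, and numbers in parentheses count the measured members.

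Cells of both libraries were chosen by 1 limit on replication gene RNA, so near-equal levels of further replication genes are a description and no finding. In the other kept cells the origin and helicase median was -0.28. Of 15 measured origin and helicase genes 0 were higher and 2 lower in ZD7288 S phase cells, with a median log2 ratio of -0.09. The 2 lower genes were 13.3% of the list, near the 11.4% of all genes. Mcm2 had 124 CPM in ZD7288 and 123 CPM in vehicle, a ratio of 1.00 (0.892 to 1.13). Mcm7 had 197 CPM in ZD7288 and 198 CPM in vehicle. Mcm10, which is needed to start unwinding, had 19.9 CPM in ZD7288 and 30.5 CPM in vehicle, 1.53-fold lower (1.19 to 1.96), and reached 20 CPM in vehicle alone. Gins4 was 1.29-fold lower (1.13 to 1.46), with a ratio of 0.805, within the limit, at the top 10% of S share. Geminin (Gmnn), the inhibitor of licensing, had 237 CPM in ZD7288 and 291 CPM in vehicle, a ratio of 0.815 (0.755 to 0.881) within the list limit.

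The 26 polymerase, clamp and fork genes had 3 members higher, 1 lower and a median of 0.08. Pold1, the catalytic subunit of DNA polymerase delta, had 63.6 CPM in ZD7288 and 47.0 CPM in vehicle, a ratio of 1.35 (1.12 to 1.64). Pole4, a histone-fold subunit of polymerase epsilon, was 1.39-fold higher (1.26 to 1.54), and Pclaf, the PCNA-associated factor, 1.46-fold higher (1.10 to 1.97). Rnaseh2b, of the enzyme that removes ribonucleotides from DNA, was 1.28-fold lower (1.13 to 1.44). At the top 10% of S share Pold1 and Pclaf had ratios of 1.15 and 1.02, and with limits within each library Rnaseh2b had 0.825, all within the list limit. The list's shares, 11.5% and 3.85%, lay below the 21.8% and 11.4% of all genes.

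Among 17 checkpoint and repair genes 2 passed the limit upward and 2 downward, and the median was 0.12. Each share was 11.8%, against 21.8% of all genes higher and 11.4% lower. Atm, the kinase that senses double-strand breaks, had 15.8 CPM in ZD7288 and 28.6 CPM in vehicle, 1.81-fold lower (1.38 to 2.34). H2afx, the histone that Atm marks at breaks, was 1.29-fold lower (1.18 to 1.40). Rad54l, a motor protein gene of homologous recombination, was 1.34-fold higher (1.05 to 1.74), but had a ratio of 1.03 at 5% mitochondrial UMIs. Atm reached 20 CPM in vehicle alone, and its ratio was 0.791 at the top 10% of S share and 0.740 at 5% mitochondrial UMIs.

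Among 14 chromatin assembly genes 3 passed the list limit upward and 2 downward, and the median was 0.02. These shares, 21.4% and 14.3%, lay near the 21.8% and 11.4% of all genes. The histone acetyltransferase gene Hat1, which acts on new histone H4, was 1.44-fold higher (1.31 to 1.59), and the histone variant gene H2afz 1.49-fold higher (1.24 to 1.81). Supt16h, of the FACT histone chaperone, was 1.60-fold higher (1.18 to 2.21). The histone chaperone gene Asf1b had 43.3 CPM in ZD7288 and 68.1 CPM in vehicle, 1.57-fold lower (1.33 to 1.85). The nucleosome-binding gene Hmgn2 was lower at 1691 CPM in ZD7288 and 2230 CPM in vehicle. In the cohesion list Wapl, which releases cohesin, was 1.94-fold higher (1.36 to 2.85), while Stag2 and Pds5b were 1.32-fold and 1.28-fold lower. Wapl and Supt16h reached 20 CPM in ZD7288 alone. At the top 10% of S share H2afz, Stag2 and Pds5b had ratios of 1.16, 0.964 and 0.932, and at 5% mitochondrial UMIs Hat1 had 1.24, all within the limit.

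Nucleotide synthesis genes were higher about as often as all genes. Among 16 measured members 4 were higher, close to the 21.8% of all genes, and 0 lower, and the median was 0.17. All 4 act in purine or pyrimidine synthesis. Gmps, which makes GMP, had 157 CPM in ZD7288 and 111 CPM in vehicle, 1.41-fold higher (1.25 to 1.59). Adsl, Paics and Umps were 1.35-fold, 1.27-fold and 1.25-fold higher, but had ratios of 1.12, 1.16 and 1.09 at the top 10% of S share. Tk1, which is known for its S phase expression, had a ratio of 1.02 (0.926 to 1.12).

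Most genes of G1 to S control were level, and genes that restrain the cycle went in both directions. The 13 measured control genes had 1 member higher, 1 lower and a median of 0.02. Each share was 7.69%, below the 21.8% and 11.4% of all genes. Ccnd2, cyclin D2 (ENSRNOG00000057710), had 98.1 CPM in ZD7288 and 39.1 CPM in vehicle, 2.51-fold higher (2.05 to 3.09). Ccnd1 had 722 CPM in ZD7288 and 769 CPM in vehicle. Ccne1 and Ccne2 had ratios of 1.06 (0.943 to 1.20) and 0.941 (0.834 to 1.06). E2f2 was 1.65-fold lower (1.24 to 2.17), at 15.0 CPM in ZD7288 and 24.8 CPM in vehicle, but its ratio was 1.05 in cells thinned to 5000 UMIs.

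Of 5 measured CDK inhibitor genes 3 were higher and 2 lower. Their median was 0.38, but -0.43 at a floor of 50 CPM, so no direction is given for the list. Cdkn2b and Cdkn1b reached 20 CPM in ZD7288 alone. Cdkn1a, which encodes p21 (ENSRNOG00000000521), had 190.5 CPM in ZD7288 and 65.1 CPM in vehicle, 2.93-fold higher (2.51 to 3.43). A single vehicle cell gave 52 of the 173 vehicle UMIs, and without the top cell of each library the ratio was 4.05 (3.37 to 4.89). It was 1.65 at the top 10% of S share and 4.80 at 5% mitochondrial UMIs. In cells thinned to 5000 UMIs, 48.9% of ZD7288 S phase cells (45.2 to 52.6) and 19.1% of vehicle S phase cells (13.0 to 26.6) had a Cdkn1a UMI, while 85.6% and 46.1% had 1 at full depth. Cdkn2b, which encodes p15 and blocks CDK4 and CDK6, had 39.5 CPM in ZD7288 and 6.40 CPM in vehicle, 6.17-fold higher (3.82 to 10.7). It too leaned on 1 vehicle cell with 6 of 17 UMIs, and was 9.36-fold higher (5.20 to 18.8) without the top cell of each library. That step took out 1.19% of the ZD7288 UMIs of Cdkn2b and 35.3% of its vehicle UMIs. Cdkn1b was 1.30-fold higher (0.962 to 1.79), Cdkn2c 1.34-fold lower (1.15 to 1.57) and Cdkn3, a phosphatase gene whose RNA is known to peak with mitosis, 1.5-fold lower (1.35 to 1.66).

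The p53 target list had 13 measured genes of 25 matched, 8 of them higher (61.5%, against 21.8% of all genes), 0 lower and a median of 0.55. Of the 13, 2 reached 20 CPM in ZD7288 alone and so could only be above vehicle. Of the 11 that reached it in both libraries 6 were higher. Cdkn1a, given above, is also in this list. The stress gene Gadd45a had 261 CPM in ZD7288 and 77.9 CPM in vehicle, 3.34-fold higher (2.91 to 3.86). Pmaip1, a proapoptotic BH3-only gene, was 3.43-fold higher (2.66 to 4.49; 5.49-fold in cells thinned to 5000 UMIs), and Sesn2, a sensor of amino acids also in the ATF4 list, 6.14-fold higher (4.66 to 8.25). Mdm2, which degrades p53, was 1.47-fold higher (1.17 to 1.87), and Ccng1 and Bax had ratios of 1.16 (1.04 to 1.30) and 1.00 (0.930 to 1.08). In cells with at most 5% mitochondrial UMIs the list median was 0.13.

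Genes of G2 and mitosis, low in S phase cells as a class, were higher in 9 cases of 36 measured and lower in 3. These shares, 25% and 8.33%, lay near the 21.8% and 11.4% of all genes. Of the 36, 4 reached 20 CPM in ZD7288 alone and 1 in vehicle alone. Of the 31 that reached it in both libraries 8 were higher and 2 lower. The median was 0.16. Kif23, a kinesin of cytokinesis, and Nuf2, of the kinetochore, were 1.73-fold (1.32 to 2.30) and 1.67-fold (1.37 to 2.07) higher. Kif23 had a ratio of 1.02 at 5% mitochondrial UMIs and 1.19 without the limit on the M share, and Nuf2 1.19 at the top 10% of S share. Pttg1, securin, had 71.0 CPM in ZD7288 and 122 CPM in vehicle, 1.72-fold lower (1.51 to 1.94). The median turned to -0.15 at 5% mitochondrial UMIs and to -0.08 without the limit on the M share, so no direction is given for this list. Cdc20 of the M share was 1.93-fold higher (1.55 to 2.44) under the rule and had a ratio of 1.07 without the M share limit.

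ATF4 is a transcription factor translated when amino acids are short or other stress halts general translation, and its targets take up and make amino acids and charge tRNAs. In S phase cells 31 of 32 measured genes of its list, of 39 matched, were higher in ZD7288 and 0 lower (96.9%, against 21.8% of all genes), with a median log2 ratio of 1.58. The 7 other matched genes stayed under 20 CPM in both libraries. Of the 32, 10 reached 20 CPM in ZD7288 alone and so could only be above vehicle. Of the 22 that reached it in both libraries 21 were higher. The remaining gene was the transporter gene Slc38a2, at a ratio of 0.877 (0.743 to 1.04). Atf4 itself had 297 CPM in ZD7288 and 111 CPM in vehicle, 2.67-fold higher (2.37 to 3.01).

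Among its targets that report stress, Trib3, a pseudokinase gene that feeds back on ATF4 (ENSRNOG00000007319), had 1036 UMIs in ZD7288 (60.7 CPM) and 1 UMI in vehicle (0.376 CPM), a ratio of 161 (28.9 to 6373). Chac1, which breaks down glutathione, had 59.9 CPM in ZD7288 and 3.39 CPM in vehicle, 17.7-fold higher (9.28 to 38.8). Ddit3, which encodes CHOP, was 2.77-fold higher (2.03 to 3.87), and Ddit4, an inhibitor of mTORC1, 5.37-fold higher (3.58 to 8.43). Chac1 gives a promoter of the other kind beside the helicase genes. In it the capitals mark the match, on the opposite strand, to TGATGNAAN, the element at which ATF4 is known to pair with C/EBP factors.
Chac1, chr3:126795881-126796180, plus strand: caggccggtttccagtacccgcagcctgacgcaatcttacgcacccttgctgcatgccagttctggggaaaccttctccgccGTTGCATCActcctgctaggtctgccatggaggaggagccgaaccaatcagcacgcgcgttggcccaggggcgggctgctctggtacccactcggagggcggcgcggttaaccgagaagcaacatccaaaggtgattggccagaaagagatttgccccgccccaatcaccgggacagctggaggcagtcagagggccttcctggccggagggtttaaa
This element was in 7 of the 27 promoters of the list found in the table (25.9%) and in 1044 of all 27457 (3.80%), while none of the 27 held an E2F motif. None of the S share, M share, origin and helicase or polymerase, clamp and fork promoters held the element.

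Amino acid transporters and enzymes made up most of the list. Slc7a3, which carries arginine and lysine, had 164 CPM in ZD7288 and 6.02 CPM in vehicle, 27.3-fold higher (16.8 to 47.8). Slc7a11, the cystine transporter, was 11.9-fold higher (6.60 to 23.9), and Cth, the last enzyme from methionine to cysteine, 18.2-fold higher (10.6 to 34.2). Pck2, the mitochondrial PEPCK, was 13.0-fold higher (7.87 to 23.3). Slc7a5 and Slc3a2, which together form the carrier of large neutral amino acids, were 2.77-fold (2.49 to 3.09) and 3.36-fold (3.11 to 3.63) higher. Of 8 tRNA synthetase genes measured all were higher, from Wars at 1.84-fold (1.51 to 2.26) to Eprs at 3.43-fold (3.05 to 3.87). Slc7a3 had UMIs in 9 of 141 vehicle S phase cells, and without the top cell of each library Slc7a3 was 39.4-fold and Chac1 26.1-fold higher. Over the alternatives, ratios ran from 15.5 to 66.1 for Slc7a3, 10.4 to 48.6 for Chac1, 15.9 to 52.5 for Cth and 6.05 to 18.4 for Slc7a11.

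Serine and folate genes, which supply carbon for thymidylate and purines, were higher together. All 7 measured members passed the limit, of 12 matched, with a median of 1.39, and 5 of these are also in the ATF4 list. Phgdh, the first enzyme of serine synthesis, had 823 CPM in ZD7288 and 423 CPM in vehicle, 1.95-fold higher (1.83 to 2.07). Psat1 and Psph, the next steps, were 2.67-fold (2.44 to 2.93) and 3.32-fold (2.84 to 3.90) higher. The mitochondrial folate enzymes Shmt2 and Mthfd2 were 2.71-fold (2.46 to 3.0) and 2.61-fold (2.35 to 2.92) higher. Mthfd1, the cytosolic enzyme, was 1.27-fold higher (1.07 to 1.5), the smallest ratio of the 7.

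Cell by cell, the ATF4 list shifted as a whole in S phase cells. With every cell thinned to 5000 UMIs, ZD7288 S phase cells had 37.7 ± 14 UMIs of the list (SD over 730 cells, range 5 to 96, median 38), and vehicle S phase cells 13.2 ± 6.53 (SD over 141 cells, range 2 to 40, median 12). Of ZD7288 cells 714 (97.8%) were above the vehicle median, and 310 (42.5%) were above the highest vehicle cell. Of vehicle cells 1 (0.709%) reached the ZD7288 median. Trib3 had a UMI in 23.6% of thinned ZD7288 S phase cells (20.5 to 26.8) and in 0 of 141 vehicle S phase cells, which at 3 cells allows a share of up to 2.13% of thinned cells with a UMI (exact upper limit 2.58%). At full depth the shares were 53.6% in ZD7288 and 0.709% in vehicle. Cells of 1 library are not replicates.

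**Figure D4:**
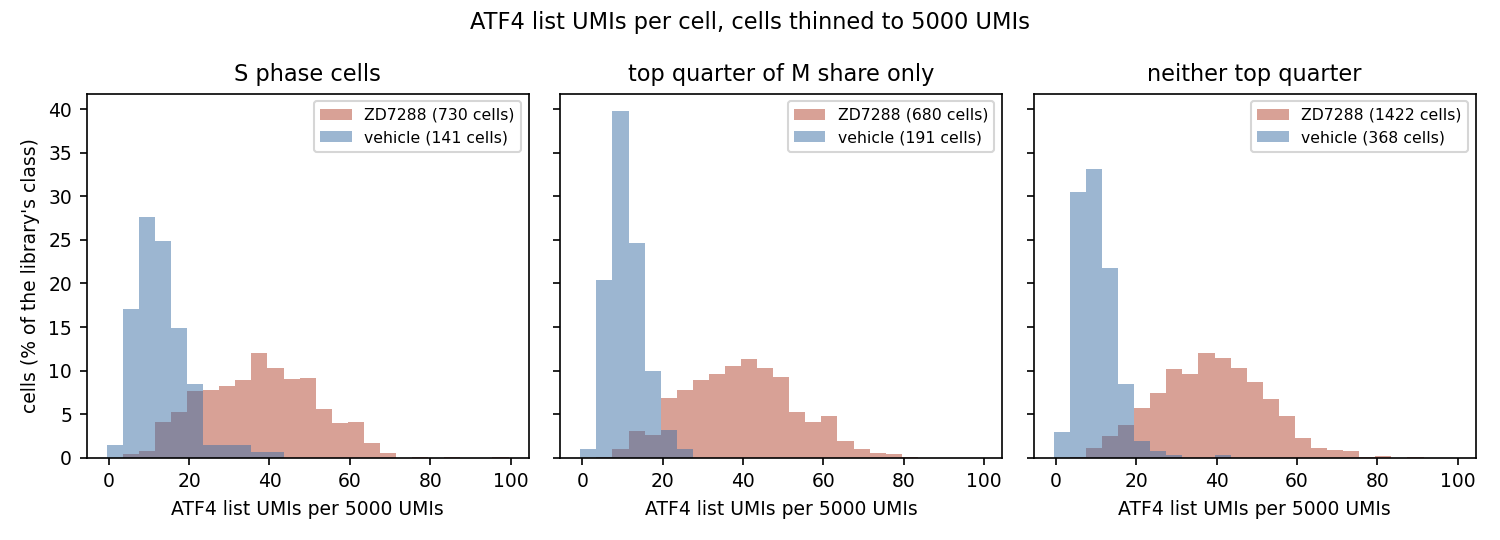
Histograms show UMIs of the ATF4 list per cell after thinning to 5000 UMIs on the x axis and the percentage of the library's cells in each class on the y axis, for S phase cells, the M class and cells in neither top 25%. In S phase cells the ZD7288 median is 38 and the vehicle median 12, and the vehicle cells reach up to 40.

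Further stress and growth lists were shifted by less. The NRF2 list of the oxidative stress response had 11 of 18 measured genes higher (61.1%, against 21.8% of all genes), 0 lower and a median of 0.39. Of the 18, 3 reached 20 CPM in ZD7288 alone and so could only be above vehicle. Of the 15 that reached it in both libraries 8 were higher. Slc7a11, given above in the ATF4 list, is also in this list. It had the list's largest ratio and reached 20 CPM in ZD7288 alone. Heme oxygenase Hmox1 had 83.1 CPM in ZD7288 and 21.5 CPM in vehicle, 3.87-fold higher (2.97 to 5.14). Nqo1 was 6.04-fold (3.43 to 11.8) and Gstp1 3.05-fold (2.86 to 3.24) higher, while the ferritin gene Ftl1 had a ratio of 0.924 (0.899 to 0.949). Among 22 genes of ribosome biogenesis 9 passed the limit upward (40.9%, against 21.8% of all genes) and 0 downward, with a median of 0.26. They were led by Nop56, a core protein of box C/D particles, at 1.69-fold (1.53 to 1.87).

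Endoplasmic reticulum chaperone genes lay mostly on the lower side. Of 16 measured members 8 were lower, against 11.4% of all genes, and 1 was higher, and the median was -0.32. Sdf2l1 reached 20 CPM in vehicle alone and so could only be below vehicle in ZD7288. Of the 15 that reached it in both libraries 7 were lower. Calreticulin, Calr, had 372 CPM in ZD7288 and 598 CPM in vehicle, 1.61-fold lower (1.52 to 1.70). Sdf2l1 was 3.08-fold lower (2.34 to 4.03) and Hsp90b1 had a ratio of 0.707 (0.649 to 0.772). Herpud1, of the degradation pathway, was 2.30-fold higher (1.88 to 2.85).

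Of 12 matched oligodendrocyte lineage genes 3 were measured, Olig1, Olig2 and Cnp, and 9 stayed under 20 CPM in both libraries. All 3 were lower, against 11.4% of all genes, and neural stem cell markers went both ways. The Notch pathway list had 6 measured genes of 19 matched, each of them lower. But 5 of these reached 20 CPM in vehicle alone and so could only be below vehicle in ZD7288. That leaves Hes6 and gives the list no direction. The receptor gene Notch1 had 15.7 CPM in ZD7288 and 31.6 CPM in vehicle, 2.01-fold lower (1.56 to 2.58). The receptor gene Notch2, the ligand genes Dll1 and Dll3 and the effector gene Hes1 had ratios between 0.512 and 0.589, and Hes6, which counters Hes1, 0.717 (0.627 to 0.823). The oligodendrocyte lineage factors Olig1 and Olig2 were lower too. Olig1 had 955 CPM in ZD7288 and 1651 CPM in vehicle, 1.73-fold lower (1.67 to 1.79), and a UMI in 97.8% of thinned ZD7288 and 99.3% of thinned vehicle S phase cells. Olig2 was 1.70-fold (1.59 to 1.81) and Cnp, a myelin enzyme gene, 2.34-fold (2.09 to 2.61) lower.

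Of 9 measured neural stem cell markers, of 13 matched, 3 were higher and 3 lower. Each share was 33.3%, against 21.8% of all genes higher and 11.4% lower. Of these 2 higher and 1 lower reached 20 CPM in 1 library alone. Msi1, an RNA-binding protein gene, was 1.94-fold higher (1.45 to 2.64). Slc1a3, which takes up glutamate, was 1.59-fold higher (1.45 to 1.75). Sox9 was 1.74-fold lower (1.53 to 1.96), and Fabp7, a fatty acid binding protein gene of radial glia, had 2104 CPM in ZD7288 and 3043 CPM in vehicle. Vim was level at 0.986 (0.967 to 1.00). Of neuron markers Gap43 was 1.40-fold higher and Map2 1.38-fold lower, and Elavl4 of the intermediate progenitor list was 1.56-fold higher (1.23 to 2.00).

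Outside the lists, the largest ratio belonged to Ifi27l2b (ENSRNOG00000026605), of a family known for its response to interferon, with 936 UMIs in ZD7288 S phase cells (54.8 CPM) and 0 in vehicle, at least 48.5-fold higher against 3 counts in vehicle. The UMIs came from 336 of 730 cells. The inflammatory caspase gene Casp4 was 7.72-fold higher (5.24 to 11.9), and Creb3l1, a transcription factor of the secretory pathway, 9.36-fold (4.26 to 25.7). The phospholipase gene Pla2g4a had 21.9 CPM in ZD7288 and 1.51 CPM in vehicle, where it had 4 UMIs. Over the alternatives the ratios ran from 7.20 to 12.5 for Casp4, 6.72 to 15.5 for Creb3l1 and 0.0807 to 0.212 for Gal3st1. At the other end, Gal3st1, which makes the myelin lipid sulfatide, had 4.80 CPM in ZD7288 and 32.4 CPM in vehicle, 6.74-fold lower (4.92 to 9.24). Cfap52, of motile cilia, was 6.70-fold lower (5.0 to 8.97), Cmtm5 4.12-fold (2.92 to 5.78) and Fam89a 3.47-fold (2.74 to 4.36). Plppr3, Rap1gap, Dlgap3, Vstm2b, Aif1l, Serinc5 and Rnf144a were between 2.57-fold and 3.43-fold lower. Serinc5 was within 1.5-fold at 5% mitochondrial UMIs, at a ratio of 0.784.

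The ATF4, NRF2 and oligodendrocyte medians lay on the same side of 0 in S phase cells, in the M class and in cells in neither top 25%. Lists of replication, checkpoint and chromatin genes had medians near 0 in S phase cells and below 0 in cells in neither top 25%. For origin and helicase genes the medians were -0.09 in S phase cells, -0.15 in the M class and -0.42 in cells in neither, where 8 of 11 measured genes were lower (72.7%, against 17.1% of all genes) and 0 higher (32.9% of all genes). Ccne2 had 29.2 CPM in ZD7288 and 53 CPM in vehicle cells in neither top 25%, a ratio of 0.552, against 0.941 in S phase cells. The classes were cut by the replication genes' own RNA, and cells in neither top 25% had the lower median S share in ZD7288. The part of that choice in these medians was not tested. No test of the difference between classes was possible with 1 library per group.

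**Figure D5:**
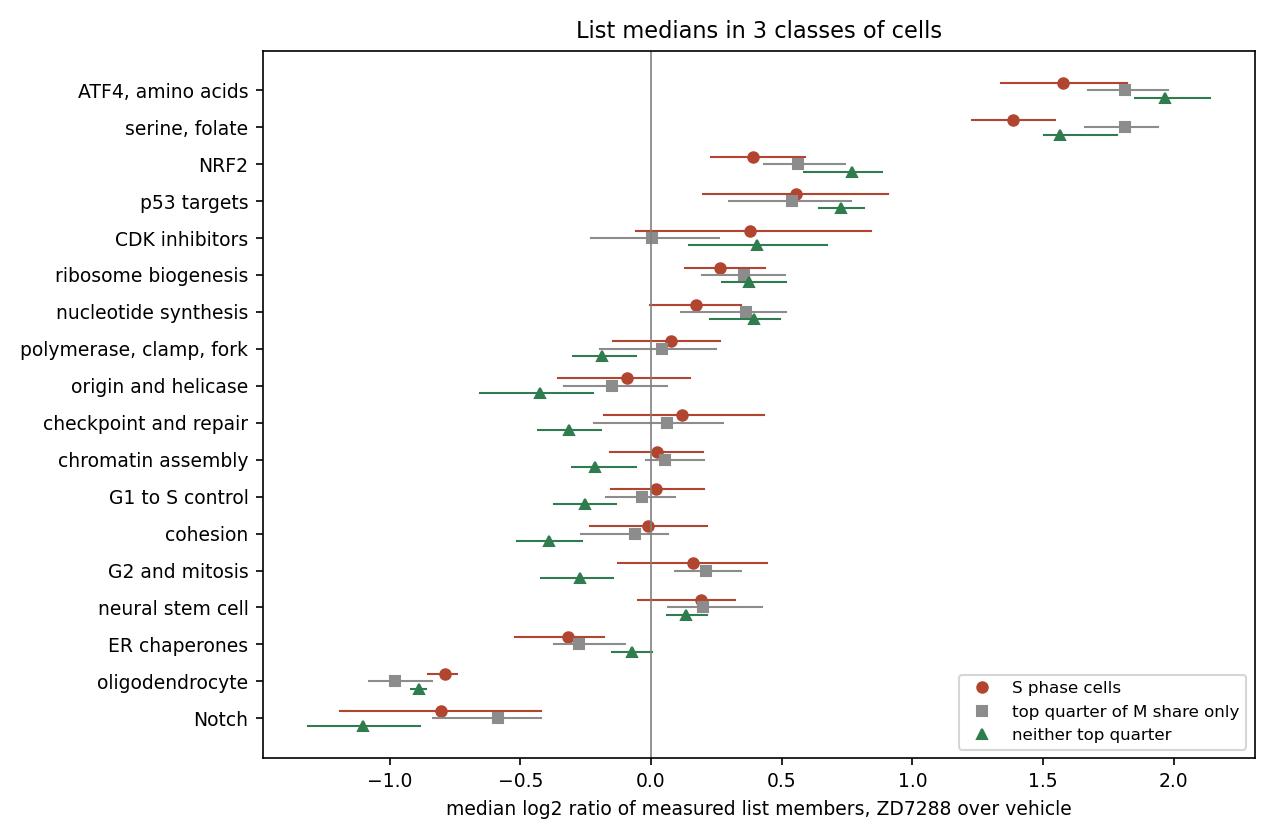
Symbols are medians of the log2 ratio of ZD7288 over vehicle, over the measured members of each list, in S phase cells, the M class and cells in neither top 25%. Lines run from the median of the members' lower 95% limits to that of their upper limits, and the ATF4 medians are 1.58, 1.81 and 1.97 in these 3 classes.

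The ATF4 list median was lowest in S phase cells, at 1.58, against 1.81 in the M class and 1.97 in cells in neither top 25%. The ZD7288 levels were alike, with 37.7, 39.3 and 38.7 UMIs of the list per thinned cell in S phase cells, the M class and neither. The vehicle levels were 13.2, 10.9 and 10.1 in the same order. In vehicle, S phase cells held more of the list than other cells, with 10 of 23 measured genes higher (43.5%, against 16.5% of all genes), whereas in ZD7288 0 of 32 were. Vehicle S phase cells were also higher in 5 of 7 serine and folate genes, with a median of 0.47, against 0.07 in ZD7288.

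Asparagine synthetase, Asns, was among the genes that differed most between classes. It had 305 CPM in ZD7288 and 62.8 CPM in vehicle S phase cells, 4.85-fold higher (4.15 to 5.69), but was 12.7-fold higher (10.5 to 15.3) in the M class and 10.2-fold (9.05 to 11.6) in neither. Vehicle cells of the M class and of neither had 26.3 and 31.3 CPM, below the vehicle S phase level, which was 50.6 CPM without its 5 richest cells. A UMI of Asns was found in 30.5% of thinned vehicle S phase cells (23.0 to 38.8), 8.38% of the M class (4.86 to 13.2) and 14.4% of neither (11.0 to 18.4), and in 72.7%, 77.9% and 76.9% of the same classes of ZD7288. At full depth, the vehicle shares were 53.9%, 37.7% and 41.0%.

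Of 4732 genes with at least 20 UMIs in each sum, 524 had a ratio in S phase cells below that in neither with intervals apart, and 302 above. Besides Asns, the widest gaps downward were in Cd9, Ptprn, Avpi1, Hmox1 and Tbxas1. Hmox1 was 3.87-fold higher in S phase cells and 7.60-fold higher (6.36 to 9.16) in neither. The widest gaps upward were in Sp1, Mms22l, Arhgap11a, Dock1, Atn1 and Myo9b. Mms22l, which protects stalled forks, had 22.0 CPM in ZD7288 and 23.0 CPM in vehicle S phase cells, a ratio of 0.957 (0.728 to 1.28), against 9.19 and 23.7 CPM in neither, a ratio of 0.387 (0.323 to 0.465).

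Among S phase cells themselves, the ATF4 difference was present at every level of S share. Cut at 0.133% and 0.164% into 3 ranges with equal numbers of the pooled cells, the low, middle and high ranges held 238, 239 and 253 ZD7288 cells and 52, 51 and 38 vehicle cells. The ATF4 median was 1.52, 1.67 and 1.59 from low to high. The ratio of Asns was 3.59 (2.92 to 4.47), 5.78 (4.29 to 7.98) and 7.43 (5.13 to 11.2) from low to high. In vehicle, Asns had 82.7, 50.9 and 43.4 CPM in these ranges, and in ZD7288 297, 294 and 323 CPM, with the wider spread in vehicle. Cdkn1a had ratios of 3.65, 6.15 and 1.40. The high range holds the vehicle cell with 52 UMIs, and without the top cell of each library the ratios were 3.65, 5.73 and 3.15. Gmnn was below 1 in each range, at 0.770, 0.850 and 0.786, and Olig1 at 0.577, 0.533 and 0.620.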

How the data were processed

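The matrix was deposited as raw UMI counts per gene and cell barcode, written by Cell Ranger 3.0.2 per the file headers, from Chromium 3′ kit version 2 libraries per the labels' protocols. The genome build is not given in the sources used here. The barcode suffix was matched to the number that opens each sample title, with 1 sample per group. The matrix's own gene names were used and held 452 of 475 list symbols, and promoters came from the GRCr8 RefSeq table.

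The UMI limit left out 903 ZD7288 and 120 vehicle barcodes, and the mitochondrial limit 108 and 12 more. Counts were summed over cells and divided by the total to CPM, with exact Poisson intervals. Ratios have exact Clopper-Pearson intervals, at 95% throughout, and these cover counting error only. Genes were measured from 20 CPM in the higher library and called at 1.5-fold, list members at a log2 ratio of 0.32. Members and lists were chosen with earlier results of these data known.

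Genes were named as the 12 largest and 12 smallest ratios, the genes of the rule, up to 4 measured members per list past the limit (if none passed it, the 2 most abundant members), the 12 genes outside the rule highest in S phase cells, and the 6 genes each way that differed most from cells in neither top 25%. Any further gene was picked with its values known. Some genes that this rule names are not reported here. Depth was 75757721 UMIs in ZD7288 and 15935468 in vehicle. Alternatives changed scaling, weighting, depth, limits, floors and doublets, and leaving out the top cell per library was added after seeing the data. The steps were tested on simulated data. Doublets were scored with Scrublet in scanpy 1.11.5. Python 3.11.15, NumPy 2.4.6, SciPy 1.17.1, pandas 2.3.3 and matplotlib 3.10.9 were used.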

Additional observations from a re-analysis of the deposited data

Results flagged for a closer look

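Pold1, the catalytic subunit of DNA polymerase delta, and Cd9, a tetraspanin gene of the neural stem cell list, drew attention because their ratios of ZD7288 over vehicle lay on opposite sides of 1 in S phase cells and in cells in neither top 25%. Pold1 had a ratio of 1.35 in S phase cells and 0.843 in cells in neither. At the top 10% of S share its ratio was 1.15. Pold1 is a replication gene, and the classes were cut by RNA of other replication genes. Cells in neither had a median S share of 0.0483% in ZD7288 and 0.0638% in vehicle. The part of that choice in the Pold1 ratios was not tested. Cd9 had a ratio of 0.659 in S phase cells and 1.45 in cells in neither. In S phase cells Cd9 reached 20 CPM in vehicle alone, at 14.6 CPM in ZD7288 and 22.2 CPM in vehicle, and in cells in neither it stayed under 20 CPM in both libraries, at 18.1 CPM in ZD7288 and 12.5 CPM in vehicle. The difference between the classes was not tested, since each group had 1 library.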

How the results depend on the processing

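Of 259 summary values under the alternatives, 238 kept their size within their interval or margin, 20 moved and 1 turned its sign. The 387 genes higher and 182 lower became 603 and 329 in cells thinned to 5000 UMIs, 177 and 72 at a floor of 50 CPM, 805 and 510 at 5 CPM and 124 and 39 at 2-fold, and 297 were lower at the top 10% of S share. S phase shares there were 10.8% in ZD7288 and 6.62% in vehicle. The vehicle share was 23.8% with limits within each library and 31.4% at 5% mitochondrial UMIs. At that limit the medians were -0.15 for G2 and mitosis, 0.13 for p53 targets and -1.01 for the oligodendrocyte list, which was -0.86 under median gene ratio scaling. The M share genes' median was -0.21 at the top 10% and -0.30 without the M share limit. The serine and folate median was 1.12 at 5 CPM, and the CDK inhibitor median turned to -0.43 at 50 CPM. Of 100 named genes, chosen in part by the size of these ratios, 62 passed 1.5-fold. Of all measured genes 8.05% passed it upward and 3.79% downward. Among the 62, 17 fell under it in some setting, and E2f2 turned to a ratio of 1.05 when thinned. The cause was not tested. The ATF4 median stayed between 1.51 and 1.65. Vehicle S phase cells, 141 in number, limit the precision of every ratio. No paired analysis was possible because each group had 1 sample.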

Other observations

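Growth genes separated S phase cells from the other kept cells less in ZD7288 than in vehicle, as values side by side. Of nucleotide synthesis genes, 8 of 16 measured were higher in ZD7288 S phase cells than in other ZD7288 cells, against 7.17% of all genes, with a median log2 ratio of 0.33. In vehicle 13 of 15 were, against 16.5% of all genes, with a median of 0.53. Umps, which makes UMP, had 119 CPM in S phase cells and 76.2 CPM in other cells of ZD7288, and 94.8 against 54.7 CPM in vehicle. Of 22 ribosome biogenesis genes 2 were higher in S phase cells of ZD7288 and 11 in those of vehicle, with medians of 0.12 and 0.32. Ncl, which encodes nucleolin, had ratios of 1.09 (1.07 to 1.12) in ZD7288 and 1.26 (1.20 to 1.33) in vehicle. Endoplasmic reticulum chaperone genes had 0 of 16 higher in ZD7288 S phase cells and 5 of 16 in vehicle. Hspa5, the main chaperone of that compartment, had ratios of 1.02 in ZD7288 and 1.29 in vehicle. The difference between the libraries was not tested.

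The proliferation genes Mki67 and Top2a, both in the G2 and mitosis list, had near-equal levels in S phase cells of both libraries. These cells were chosen at 1 limit on S share and 1 on M share for both libraries, so this is a description. Mki67, a coat protein of mitotic chromosomes, had 58.8 CPM in ZD7288 and 60.6 CPM in vehicle S phase cells, a ratio of 0.971 (0.822 to 1.15). Among cells in neither top 25% it had 39.3 CPM in ZD7288 and 83.9 CPM in vehicle, a ratio of 0.468 (0.427 to 0.514). Top2a, the topoisomerase that untangles DNA, had a ratio of 1.11 (0.957 to 1.29) in S phase cells and 0.599 (0.553 to 0.650) in cells in neither. Cells in neither had a median M share of 0.0250% in ZD7288 and 0.0365% in vehicle, and S shares of 0.0483% and 0.0638%. The part of the choice of cells in these ratios was not tested.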
